A study of Rattus norvegicus with 4 samples.

Results

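Clade A serine protease inhibitors of rat liver were represented on the array by Serpina3n, Serpina3c and Serpina1. They were taken as every probe whose platform annotation gives exactly 1 gene symbol and that symbol is one of these, which were 7 of 1936 probes and 3 of 958 named genes. Two-colour cDNA arrays set liver RNA of male Sprague-Dawley rats whose common bile duct, the vessel that carries bile from liver to gut, had been ligated 1 h earlier beside liver RNA of rats killed 1 h after a sham operation, in which the duct was laid open to view but not tied. The labels name no other treatment, genotype or age, and both operations were done under ether. RNA of the right lateral lobe was mixed within groups of 3 rats, so a value stands for a pool, and the labels do not tell whether the 4 arrays shared pools. The p-values given for other genes and for the dye therefore measure only the spread between arrays, which may be technical. Ligated RNA was labelled with Cy5 on 2 arrays (1 and 3) and with Cy3 on the other 2 (2 and 4), and sham RNA with the other dye each time.

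Serpins trap a protease through an exposed loop that the enzyme cuts, after which the inhibitor folds over and holds the enzyme in a dead complex. Hepatocytes make several clade A serpins in large amounts and secrete them into plasma. Serpina1 encodes α1-antitrypsin, the main plasma inhibitor of neutrophil elastase. The Serpina3 group is a single gene in humans and an expanded family in rodents. Rat Serpina3c, which RefSeq also lists under kallikrein-binding protein names, is known to depend on growth hormone, and rat Serpina3n is known as an acute phase gene that cytokines of inflammation induce. In the RefSeq annotation of GRCr8 all 3 genes lie in a serpin cluster on chromosome 6. Only Serpina3l lies between Serpina3c and Serpina3n, and 8 other protein-coding genes, all of the Serpina family, lie between Serpina1 and Serpina3c. Near-identical family members can share signal on cDNA probes, so the values of Serpina3n and Serpina3c are uncertain as to which family member they measure.

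The 250 bases upstream of the start were available in RefSeq's GRCr8 promoter table for Serpina3n (chr6:129088142-129088391, plus strand) and Serpina1 (chr6:128653126-128653375, minus strand), and the entry of Serpina3c is named only. They are shown because the probes of these genes share a direction in the values that follow. Capitals mark a match to TTCNNNGAA, the element that STAT factors of cytokine and growth hormone signalling are known to bind.
Serpina3n: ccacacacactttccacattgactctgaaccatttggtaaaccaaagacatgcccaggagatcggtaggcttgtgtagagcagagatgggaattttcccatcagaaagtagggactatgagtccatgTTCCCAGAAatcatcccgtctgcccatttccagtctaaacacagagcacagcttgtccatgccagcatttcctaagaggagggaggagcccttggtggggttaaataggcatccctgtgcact
Serpina1: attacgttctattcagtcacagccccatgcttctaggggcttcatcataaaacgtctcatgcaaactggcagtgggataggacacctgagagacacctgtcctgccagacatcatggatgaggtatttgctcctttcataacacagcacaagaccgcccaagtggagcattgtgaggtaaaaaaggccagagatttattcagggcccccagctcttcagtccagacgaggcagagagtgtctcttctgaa
The match in Serpina3n, TTCCCAGAA, lies from 123 to 115 bases upstream, and none was found in the Serpina1 window. Of 33465 upstream windows of the same length, 7.67% held this element on either strand. No match was found in either window to the HNF1 core motif GTTAAT, the C/EBP element TTGCNNAA or TATAAA, which 6.45%, 9.22% and 12.9% of all windows held. A search for exact letters in a short window above a single annotated start cannot show that a gene lacks such elements.

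Each probe has 1 deposited value on an array, the log ratio of its 2 channels. The base of the log is not given in the sources used here, so values stay on the deposited log scale. Values were read as ligated over sham, which is called likely here because the labels name ligated as the second channel on every array. Neither the labels nor the values state it, and every sign given for the operation turns if the ratio ran as sham over ligated. In a Cy5 over Cy3 ratio the operation and dye terms would change places, and the estimates of that reading are given in the last section. Array medians were -0.88, 0.75, -0.73 and 0.87 on arrays 1 to 4, so in the ligated over sham reading most probes followed the dye. Arrays of opposite dye correlated across probes with Pearson's r from -0.93 to -0.77. An operation estimate is the term for ligation in a limma fit on all probes with a term for the dye, after each array was centred on its median. Ratios carry no level, so markers could not check how much RNA of hepatocytes or of other cells the lobes held. In such bulk tissue, fewer cells of a type and less RNA per cell cannot be told apart.

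All 7 serpin probes had estimates below 0, from -0.39 to -0.04. With probes averaged per gene, Serpina3n was lowest, Serpina3c next and Serpina1 nearest to 0, but by single probes Serpina1 probe 1865 lay below Serpina3c probe 488. Of all 1936 probes, 60.3% had an estimate below 0, and the median estimate was -0.02. The genes were selected on these operation estimates, which were known from earlier work on the same arrays, so the estimates are described without a test. As deposited, 5 of the 7 probes lay below 0 on all 4 arrays, a pattern that 5.94% of all probes had. A probe can show this pattern only if its dye effect is small, and most probes followed the dye. The share over all probes is thus not one of probes with a like dye effect, which was not computed. After centring, none of the 7 kept the same sign on the 4 arrays.

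**Figure D1:**
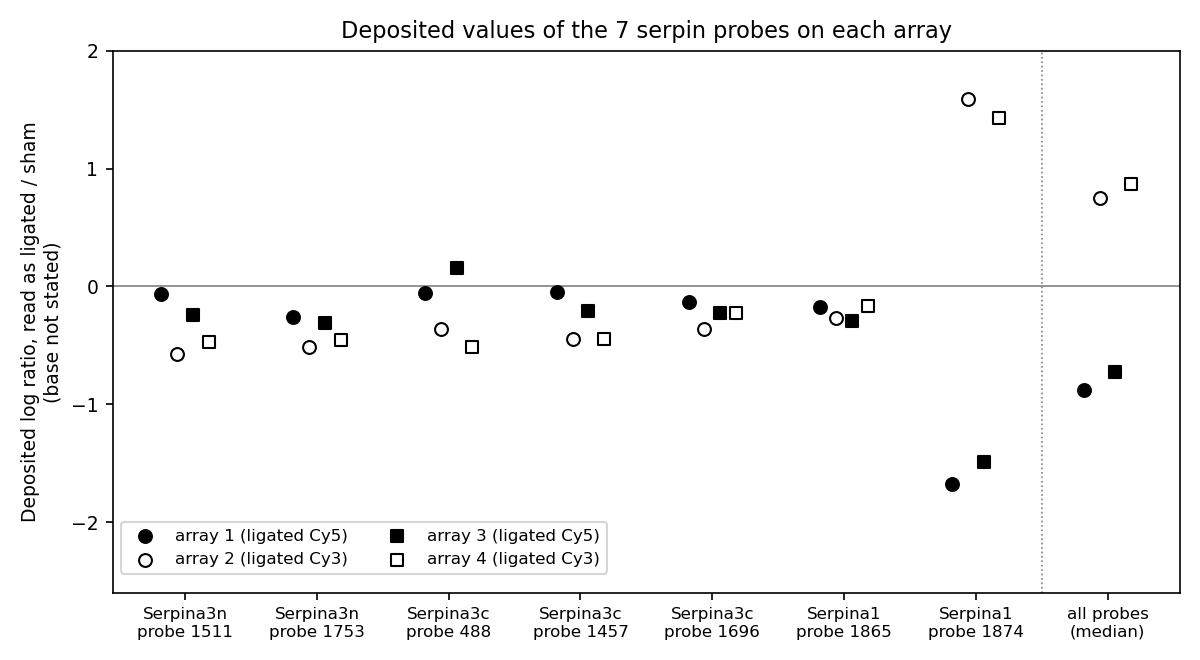
Deposited log ratios (vertical axis, base not stated, read as ligated over sham) of the 7 serpin probes and the median of all probes. Filled symbols are arrays with the ligated sample in Cy5 and open symbols arrays with it in Cy3. Of the probes, 6 lie within -0.57 and 0.16 on every array, while Serpina1 probe 1874 lies farther from 0 than the median of all probes on each array.

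Serpina3n had the lowest estimates of the 3 genes. Probe 1753 had deposited values of -0.26, -0.52, -0.31 and -0.46 on arrays 1 to 4. All 4 arrays lay below 0, and both arrays with the ligated sample in Cy3 lay lower than both with it in Cy5. Its operation estimate was -0.39 ± 0.08 (SE, n = 4 arrays), the rank 24 from the lowest of 1936. That is 1.31-fold lower after ligation if the base is 2, 1.48-fold if it is e and 2.46-fold if it is 10. Probe 1511 had -0.069, -0.57, -0.24 and -0.47, again below 0 on all 4 arrays and lower in the Cy3 arrays, with array 1 closest to 0. Its estimate was -0.34 ± 0.08 (rank 47). The mean of any array in 1 dye and any array in the other, in which a constant dye effect cancels, ran from -0.45 to -0.33 for probe 1753 and from -0.43 to -0.26 for probe 1511 on centred values. The 2 probes of Serpina3n thus differed by 0.047 in their estimates, where the median range between probes was 0.102 for the 340 genes with more than 1 probe.

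Serpina3c had 3 probes, all with estimates between those of Serpina3n and 0. Probe 1457 had deposited values of -0.048, -0.45, -0.21 and -0.45, below 0 on all 4 arrays, and an estimate of -0.29 ± 0.08 (rank 84). Probe 1696 had -0.14, -0.36, -0.23 and -0.23 with an estimate of -0.24 ± 0.08 (rank 125). Here array 3 (ligated in Cy5) and array 4 (ligated in Cy3) overlapped, and array 2 was lowest. Probe 488 was the exception in sign, with -0.058, -0.36, 0.16 and -0.52, so that array 3 lay above 0, and its estimate was -0.20 ± 0.08 (rank 180). The estimates of the 3 probes spanned 0.096. The 95% intervals of the Serpina3c probes, from -0.46 to -0.13, from -0.41 to -0.08 and from -0.37 to -0.03 in the order above, overlapped those of the Serpina3n probes (-0.56 to -0.22 and -0.51 to -0.17). Neighbours in the order of the estimates thus lay within each other's intervals.

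The 2 Serpina1 probes behaved unlike each other. Probe 1865 had deposited values of -0.18, -0.27, -0.29 and -0.16, below 0 on all 4 arrays with no separation by dye, and an estimate of -0.23 ± 0.08 (rank 136). Its values had the smallest spread of the 7 probes, with an SD of 0.064 over the arrays. Probe 1874 had -1.68, 1.59, -1.49 and 1.43, below 0 where ligated RNA was in Cy5 and above 0 where it was in Cy3. Its estimate was -0.04 ± 0.08 (rank 778), with an interval from -0.21 to 0.13 that includes 0. The mean of the 2 Serpina1 probes (-0.14 ± 0.07) mirrors neither probe, and the 2 intervals overlap, since that of probe 1865 ran from -0.40 to -0.06.

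**Figure D2:**
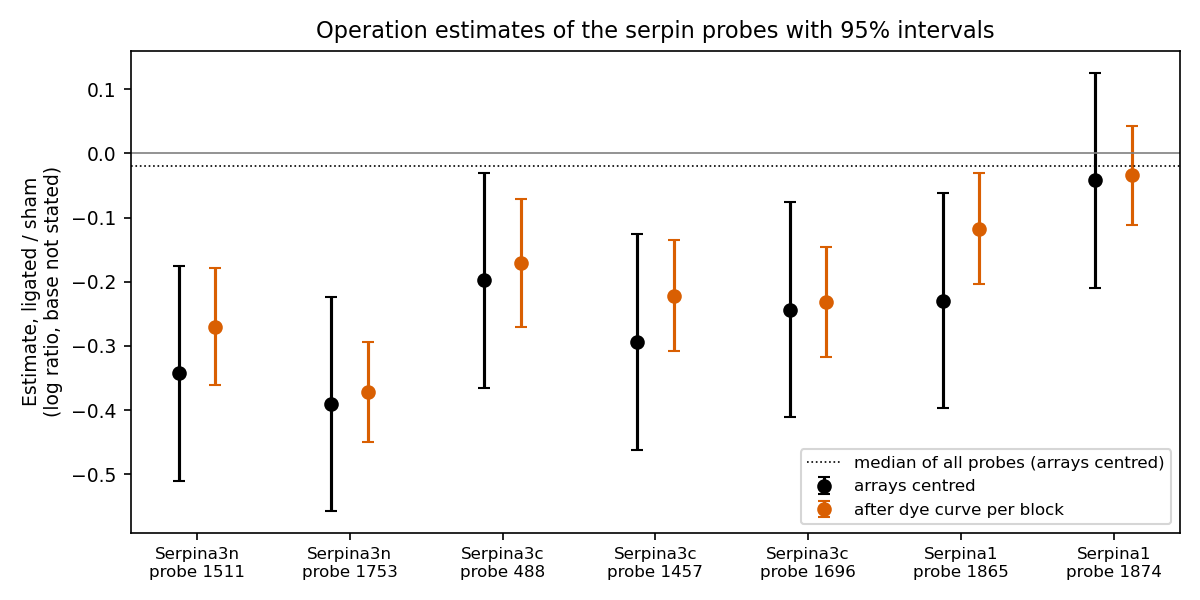
Operation estimates (vertical axis, log ratio with base not stated, ligated over sham) of the 7 serpin probes with 95% intervals of the limma fit, for centred arrays (black) and after a dye curve per block (orange). Every point lies below 0, and the intervals of Serpina1 probe 1874 include 0 in both fits.

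The dye contrast, the mean of the Cy5 arrays of the ligated sample minus that of its Cy3 arrays, halved, was not used to choose the genes and could be tested. As deposited its median over all probes was -0.81. It was 0.10 and 0.18 for Serpina3n probes 1753 and 1511. The Serpina3c probes 488, 1457 and 1696 had dye contrasts of 0.24, 0.16 and 0.056. Serpina1 probe 1865 had -0.0086 and probe 1874 had -1.55, the latter close to the far end of all probes (rank 1919 of 1936 by size). As deposited the dye term passed a limma adjusted p of 0.05 at 4 of the 7 probes, against 77.7% of all probes: Serpina1 probe 1874 (adjusted p = 4.1e-05), Serpina3n probe 1511 (0.033) and Serpina3c probes 488 and 1457 (0.019 and 0.040). It did not pass at the other 3, Serpina3n probe 1753, Serpina3c probe 1696 and Serpina1 probe 1865 (limma adjusted p = 0.10, 0.37 and 0.89). On centred values the term passed at 7 of 7, against 82.6% of all probes, with 0.80 to 1.05 for 6 probes and -0.74 for Serpina1 probe 1874. Centring thus gives the 6 probes a dye contrast that is small in their deposited values. Serpina1's 2 probes differed by 1.54 in the deposited dye contrast, the fifth largest range (rank 5) of the 340 genes with more than 1 probe, whose median range was 0.34. Serpina3c and Serpina3n had ranges of 0.19 and 0.08.

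Operation estimates moved with the dye contrast. In a window of 0.25 on either side of 0, chosen after the values were seen, lay 529 probes, 27.3% of all, and 6 of the 7 serpin probes. The median operation estimate was -0.07 inside this window, where 5% of probes lay below -0.31, and -0.01 outside it. Serpina3n probes 1753 and 1511 (-0.39 and -0.34) lay below that 5% point, and the Serpina3c probes and Serpina1 probe 1865 lay between it and the median. The genes were chosen on these same estimates, so their place in the window is a description and nothing is read from it.

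**Figure D3:**
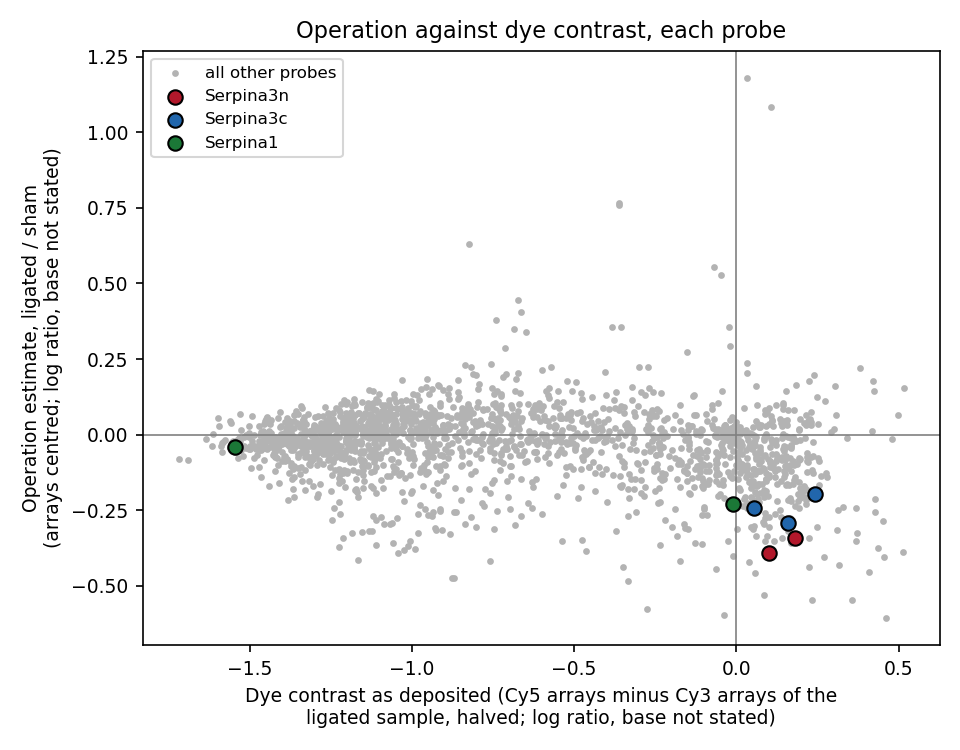
Operation estimate on centred arrays (vertical axis) against the dye contrast as deposited (horizontal axis), each point a probe, both as log ratios with base not stated. The 3 genes are coloured and all other probes grey; 6 serpin probes lie at dye contrasts from -0.0086 to 0.24, and Serpina1 probe 1874 lies at -1.55.

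Taking off a smooth dye curve on each array, which levels such a shift, left all 7 serpin probes below 0, against 50.9% of all probes. The estimates were then -0.31 and -0.26 for Serpina3n probes 1753 and 1511. Serpina3c probes 1457, 1696 and 488 had -0.21, -0.17 and -0.11 after that curve, and Serpina1 probes 1865 and 1874 had -0.16 and -0.02. With a curve per array and block of 121 consecutive probe numbers, 48.2% of all probes were below 0, and Serpina3n had -0.37 ± 0.04 at probe 1753 and -0.27 ± 0.04 at probe 1511. The same curve gave Serpina3c -0.23 ± 0.04, -0.22 ± 0.04 and -0.17 ± 0.05 at probes 1696, 1457 and 488. Serpina1 had -0.12 ± 0.04 and -0.03 ± 0.03 at probes 1865 and 1874. All 7 probes were below 0 on 4 of 4 arrays after the curve per block, which takes off the dye contrast, against 17% of all probes. Because that curve is fitted on the dye contrast of the same arrays, this sign count largely restates the operation estimates. The genes were chosen on those estimates, and nothing is read from this count. The same holds for the signs of the 7 estimates after either curve, set beside the shares of all probes. The 7 probes lie in blocks 5, 13, 15 and 16, and none in blocks 3 and 4, which held 71 of the 93 lower calls of the whole array.

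As a description, 3 of the 7 probes (both of Serpina3n and Serpina3c probe 1457) were among the 93 probes, 4.8% of all, that passed an adjusted p of 0.05 as lower in the limma fit on centred arrays. After the dye curve per block 5 of 7 passed as lower (both probes of Serpina3n and the 3 of Serpina3c), against 3.36% of all probes. After the curve per array, and on values as deposited, none of the 7 passed, where 0% of all probes passed as lower. Without replicate 1 or replicate 3 none of the 7 passed as lower, against 0.93% and 0.207% of all probes. Without replicate 2 the same 3 passed, against 1.65%, and without replicate 4 Serpina3c probe 1696 passed as well, against 10.4% of all probes. These counts bear on the contrast by which the genes were chosen, and nothing is read from them.

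By Euclidean distance over the 4 centred values, with probes of a gene averaged, Serpina3c was nearest to Cyp3a23-3a1, a liver cytochrome P450 (distance 0.043, against a median of 1.97 over all genes). Eif5-ps6 (0.13) and Icam1, an adhesion molecule (0.13), came next. Serpina3n was nearest to Eif5-ps6, Slc22a8, an organic anion transporter, and Pgrmc1, a heme-binding membrane protein (0.24, 0.25 and 0.25, against a median of 2.02). The operation estimates of these neighbours ran from -0.34 for Pgrmc1 to -0.21 for Icam1, and the distances are set mainly by the dye, which the 4 values share. For Serpina1 the averaged profile was nearest to Hadhb, Kdr and Itga1 (0.12, 0.13 and 0.14, against a median of 0.86), but it averages 2 probes of opposite dye pattern.

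Other inhibitors of plasma and tissue proteases lay mostly above 0. Of 52 listed, 6 were measured and none passed in either direction (gene level limma adjusted p from 0.22 to 0.97), against 2.92% of 958 genes lower and 1.25% higher. Their median was 0.09, against -0.02 for all genes, and 2 of the 6 were below 0, against 62.3% of all genes. Timp1, an inhibitor of matrix metalloproteinases, had 0.18 ± 0.08, and A2m, the broad protease trap α2-macroglobulin, had 0.16 ± 0.08. Itih3, a heavy chain of inter-α-inhibitor, had 0.11 ± 0.07, and Tfpi, the inhibitor of tissue factor, had -0.12 ± 0.08. After the dye curve per block Itih3 rose, by 0.17 ± 0.03 (limma adjusted p = 0.0189), where 2.61% of genes passed as higher and 2.71% as lower. Without replicate 4, where 2.4% of all genes passed as higher, A2m did (0.26, limma adjusted p = 0.0106). Serping1, the C1 inhibitor, had -0.02 ± 0.08, and Serpinb6b, a serpin outside the list, had 0.07 ± 0.09 at its probe (limma adjusted p = 0.932). The 7 probes of the 6 listed genes had a median dye contrast as deposited of -0.82, while 6 serpin probes had -0.0086 to 0.24. The inhibitors are thus not matched to the serpins by dye contrast, with which the estimates moved. Whether the 3 serpins differ from these inhibitors was not tested.

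Serine proteases of plasma, leukocytes and tissue were measured for 4 of 47 genes, and none passed. Dpp4, a membrane dipeptidyl peptidase and not of the trypsin-like class that serpins trap, had -0.15 ± 0.07, and Plat, the tissue plasminogen activator, had -0.07 ± 0.08. Prss2, a trypsinogen, had 0.016 ± 0.08, and Plau, the urokinase, had 0.08 ± 0.08 (limma adjusted p from 0.37 to 0.99 over the 4).

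Factors known to act on serpin genes in liver were measured for 18 of 42 genes. None passed, with a median of -0.03 and 10 of 18 below 0, against 62.3% of all genes. Thra, a thyroid hormone receptor, had -0.24 ± 0.09, and Nfkbia, the NF-κB inhibitor and target, had 0.22 ± 0.07 (limma adjusted p = 0.182 and 0.116). Of genes known to depend on growth hormone, Igf1 had -0.18 ± 0.08 and Igfals, the carrier subunit of IGF complexes, had -0.18 ± 0.08 (limma adjusted p = 0.212 and 0.254). Both were named for the size of their estimates. Genes of growth hormone signalling in the list lay nearer to 0. Ghr, the receptor, had -0.08 ± 0.08, Jak2 -0.04 ± 0.07, Socs1 -0.02 ± 0.07 and Stat5b 0.07 ± 0.07. Without replicate 4, where 12.3% of all genes passed as lower and 2.4% as higher, 4 of the 18 passed: Thra (-0.44), Cebpd (-0.31) and Nr3c1, the glucocorticoid receptor (-0.23), as lower and Nfkbia (0.25) as higher. After the dye curve per block none of the 18 passed. Thra and Cebpd, whose only probes lie in block 3, had 0.0063 ± 0.04 and 0.17 ± 0.05 after that curve, and Nr3c1 had -0.08 ± 0.03. Of the 3 probes of Nr3c1 on centred arrays, the one in block 3 was lowest (-0.35, against -0.13 and -0.04).

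Of genes that fold, export or degrade secreted proteins, 8 of 34 were measured, of which 1 fell and none rose. The median was -0.07 and 7 of 8 were below 0, against 62.3% of all genes. The gene that fell was Xbp1, which encodes a factor that switches on folding genes under secretory stress (-0.58 ± 0.08, limma adjusted p = 6.88e-05). It passed without any 1 of the 4 arrays, and its only probe lies in block 4. The dye curve per block left Xbp1 at -0.45 ± 0.03 (limma adjusted p = 0.000244). P4hb, a disulfide isomerase, had -0.19 ± 0.07, and Ddit3, a stress transcription factor, had -0.12 ± 0.07. Pdia4, another disulfide isomerase, had -0.09 ± 0.08 and Calr, the chaperone calreticulin, had -0.06 ± 0.08, with none of these 4 past the threshold.

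Other abundant plasma proteins of hepatocytes, made in the same cells as the serpins, were mostly below 0. Of 26 listed, 13 were measured, 12 of them below 0 against 62.3% of all genes, with a median of -0.17. Of the 13, 1 fell and none rose, against 2.92% of all genes lower and 1.25% higher. Crp, C-reactive protein, fell by 0.30 ± 0.08 (limma adjusted p = 0.0401), from probes at -0.61, in block 3, and 0.0032. The call was lost without replicate 1, 2 or 3 and after the dye curve per block (-0.09 ± 0.03, limma adjusted p = 0.175). Fgg, the fibrinogen γ chain, had -0.26 ± 0.08, and Ttr, the thyroxine carrier transthyretin, had -0.24 ± 0.08 (limma adjusted p = 0.0896 and 0.0879). Gc, the vitamin D carrier, had -0.20 ± 0.07 and complement C3 had -0.19 ± 0.08. The lower probe of Fgg (-0.39, against -0.12) lies in block 3, and those of Gc (-0.28, against -0.13) and C3 (-0.27, against -0.12) lie in block 4. With the dye curve per block Fgg, Gc and C3 had -0.0085 ± 0.03, -0.10 ± 0.03 and -0.06 ± 0.04, none past the threshold. After the dye curve per block the list median was -0.06, with 11 of 13 below 0 against 50.7% of all genes. There Ttr (-0.17) and Cp, ceruloplasmin (-0.16), fell and Orm1, an acute phase glycoprotein, rose (0.14), with limma adjusted p = 0.0491, 0.0462 and 0.0347. The probes of Cp disagreed there, with -0.29 ± 0.03 at probe 1862 and -0.04 ± 0.05 at probe 57 (limma adjusted p = 0.000455 and 0.749). Without replicate 4, where 12.3% of all genes passed as lower, 5 genes of the list did (Crp, Fgg, C3, Gc and Ttr), and without replicate 2 Ttr passed as lower. The 20 probes of these genes had a median dye contrast as deposited of 0.14, near those of the 6 serpin probes, against -0.81 for all probes.

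**Figure D4:**
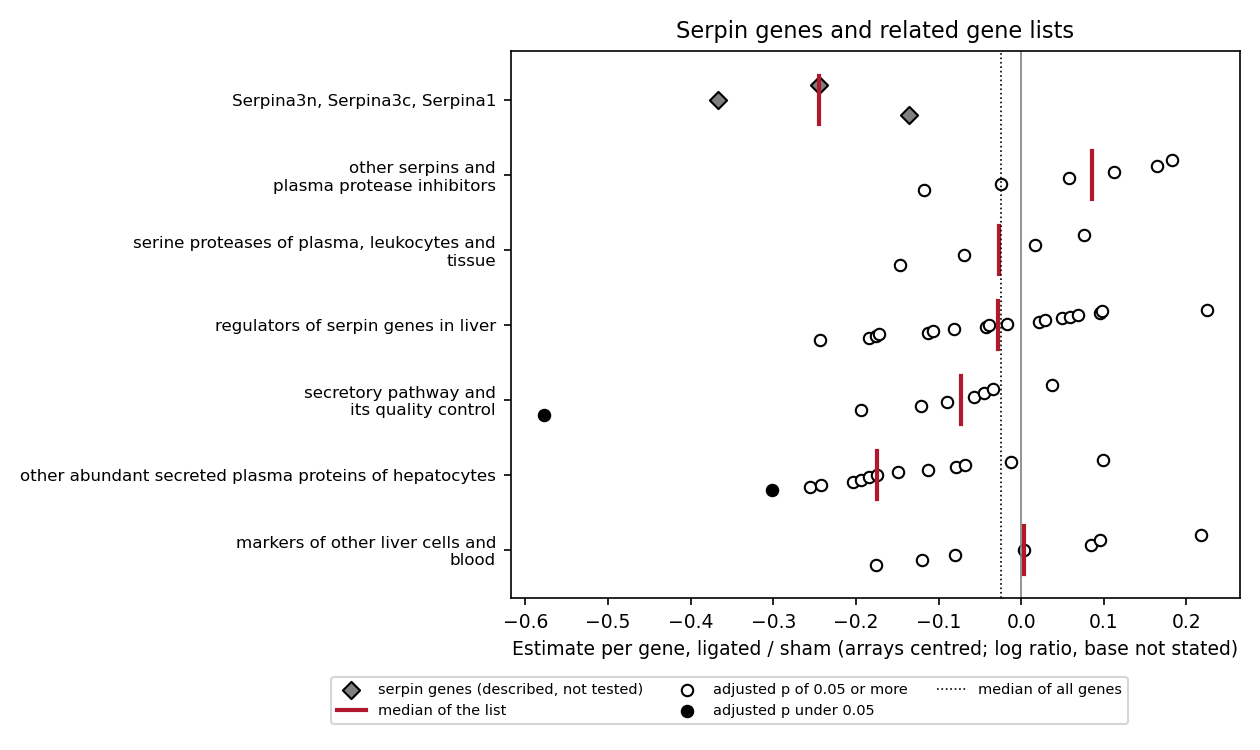
Operation estimates per gene (horizontal axis, log ratio with base not stated, ligated over sham, probes averaged) for the 3 serpin genes and the genes of 6 related lists. Among the list genes, filled circles passed a limma adjusted p of 0.05 (Xbp1 and Crp). Diamonds are the serpin genes, drawn without a test mark, red bars are list medians, and the serpins at -0.37, -0.24 and -0.14 lie on the same side of 0 as 12 of 13 other plasma proteins.

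Markers of other cells of the lobe were measured for 7 of 38 genes, and none passed. Col1a1, a collagen of stellate cells and fibroblasts, had 0.22 ± 0.07, and Spp1, osteopontin, had 0.10 ± 0.07. The endothelial genes Cdh5 and Kdr had -0.18 ± 0.08 and -0.12 ± 0.07. The list median was 0.0032, with 3 of 7 below 0, against 62.3% of all genes. Col1a1 passed as higher after the dye curve per block (0.23, limma adjusted p = 0.0119) and without replicate 4 (0.26), where Cdh5 passed as lower (-0.28), against 2.4% of all genes higher and 12.3% lower without that array. The probes of Col1a1 differed after the dye curve per block, with 0.36 ± 0.06 at probe 1306 and 0.11 ± 0.04 at probe 1183 (limma adjusted p = 0.00474 and 0.113). The part of these marker genes in the serpin values was not tested.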

How the data were processed

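The authors deposited 1 log ratio of the 2 channels for each of 1936 probes on 4 arrays, with 0 missing values. For the log base, background correction and normalization the labels give nothing, so these were not given in the sources used here, and spot intensities were not used here. The number of arrays limits the precision. Symbols came from the platform annotation, updated by gene ID through RefSeq's GRCr8 table. Of the probes 1432 had 1 symbol (1429 matched by ID, 3 kept the annotation's), 19 had several and 485 none. Arrays were centred on their medians and fitted with terms for operation and dye (lmFit and eBayes, limma 3.58.1, R 4.3.3, Benjamini-Hochberg over all probes or over 958 genes, threshold 0.05). With 2 residual degrees of freedom and 76.2 from the prior, the SE of a probe (median 0.084) comes largely from the spread pooled over probes. Dye curves were loess fits of each array on the probes' mean dye contrast (span 0.3 per array, 0.75 per block, 16 blocks). The fits were tested on simulated data. Alternatives were no centring, a Cy5 over Cy3 reading, no dye term, both curves, averaged probes and leaving out each array. Genes, lists, tests and alternatives were chosen with earlier results of these data known. Named are all serpin probes, the list genes that passed, up to 4 others with the largest estimates, and the 3 genes nearest in pattern. Calls under alternatives, the genes passing only there, Serping1, Serpinb6b, Ghr, Jak2, Socs1 and Stat5b were named after their values were seen.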

Additional observations from a re-analysis of the deposited data

How the results depend on the processing

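With 4 arrays of pooled RNA the fit cannot speak to the spread between animals, and signal over background is unknown. Both operations lie on every array, so each ratio already pairs ligated with sham RNA, and the operation term uses this pairing. All arrays form 1 group, and no further pairing was fitted. The direction of the ratio is not settled. In a Cy5 over Cy3 reading on centred arrays the estimates were 0.80 and -0.74 for Serpina1 probes 1865 and 1874, 0.99 and 0.91 for Serpina3n probes 1511 and 1753, and 1.05, 0.97 and 0.86 for Serpina3c probes 488, 1457 and 1696. In the same order without centring, an alternative chosen after seeing the data, they were -0.0086, -1.55, 0.18, 0.10, 0.24, 0.16 and 0.056. In the reading used, leaving out each array gave -0.30 to -0.16 and -0.11 to 0.028 for the Serpina1 probes, the positive value without replicate 4. It gave -0.42 to -0.26 and -0.44 to -0.34 for Serpina3n, and -0.27 to -0.13, -0.37 to -0.22 and -0.30 to -0.18 for Serpina3c, in the same order. The 111 probes that passed became 3 as deposited, 1599 in the Cy5 over Cy3 reading, 0 without the dye term, 7 after the curve per array, 40 genes with probes averaged and 12 to 241 without an array. As deposited the dye contrast was -0.0086 for Serpina1 probe 1865 (limma adjusted p = 0.89), 0.10 for Serpina3n probe 1753 and 0.056 for Serpina3c probe 1696. On centred values it was 0.030 for both Serpina1 probes averaged, where their opposite signs (0.80 and -0.74) cancel. Genes passing in the inhibitor list were 1 after the curve per block and 0 to 1 without an array, and in the regulator list 0 to 4 without an array. The secretory list had 0 as deposited. The plasma protein list had 0 as deposited, 3 after the curve per block and 0 to 5 without an array. The marker list had 1 after the curve per block and 0 to 2 without an array. Fits without an array give all probes 1 SE, 0.144 without replicate 1 or 3 and 0.086 without replicate 2 or 4, and calls are lost there even where the estimate is as large. The cause of the other changes was not tested.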
